A study of Mus musculus with 54 samples.

Results

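Nuclei of flash-frozen mouse kidneys were prepared by 2 protocols that differ in how the nuclei were washed before sorting, and the RNA that stayed with the nuclei was compared. The comparison takes 6 of the 54 samples of the series, chosen by their labels: 3 libraries labelled SN_FANS_1x2000g, in which nuclei were washed once with a spin at 2000g, and 3 labelled SN_FANS_3x500g, in which they were washed 3 times at 500g. The 6 libraries hold 49601 nuclei, 26345 from 1x2000g and 23256 from 3x500g. Each library came from 1 kidney of a different mouse within its group, and all donors were untreated wild type Balb/c females of 15 weeks that had been kept as breeders. What both groups share is freezing of the whole kidney, a detergent lysis buffer of the same recipe, DAPI staining, sorting by fluorescence (FANS) and droplet libraries with version 3 of the 10x chemistry. More than the wash differed: the 1x2000g kidneys received 40 pestle strokes, 12 minutes of lysis with trituration through a glass pipette and a 30 µm strainer, whereas the 3x500g kidneys were lysed in several shorter steps and passed through a 40 µm strainer. The 3x500g nuclei were then spun and resuspended in lysis buffer before wash buffer was added. The wash, the homogenization, the lysis and the strainer cannot be told apart here, and the labels and the methods do not say whether the 2 groups shared mice. The libraries are called 1x2000g replicates 1 to 3 and 3x500g replicates 1 to 3. The p-values set the difference between the groups against the spread between the single-kidney libraries of a group.

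Single-nucleus RNA-seq reads the RNA found inside and on isolated nuclei. A nucleus holds unspliced transcripts, in which long introns give most reads of long genes, and long noncoding RNAs such as Malat1 that stay in the nucleus. Mature mRNAs leave for the cytoplasm, and mRNAs of secreted and membrane proteins are translated at the endoplasmic reticulum, whose membrane is continuous with the nuclear envelope. After lysis, cytoplasmic RNA may stay attached to nuclei or float free and be enclosed in droplets with any nucleus, and washing is the step that removes it. In the kidney most nuclei belong to the tubule. The proximal tubule reabsorbs most of the filtrate, the thick ascending limb of the loop of Henle takes up salt through the cotransporter Slc12a1 and secretes uromodulin (Umod), and the distal tubule and collecting duct follow. Endothelium, podocytes, mesangial cells, fibroblasts and macrophages make up the rest.

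The 3x500g libraries held 8657, 7628 and 6971 nuclei and the 1x2000g libraries 8993, 8234 and 9118. Total counts of unique molecular identifiers (UMIs, one for each captured RNA molecule) ran from 27228611 to 30416400 in 3x500g and from 31172062 to 35170947 in 1x2000g. The median per nucleus was 3274, 3893.5 and 3782 UMIs in 3x500g and 3847, 3731 and 3859.5 in 1x2000g, so the ranges overlapped. The group means differed by 163 UMIs (exact two-sided permutation test, p = 0.7), where the smallest p that 3 against 3 libraries allow is 0.1. After thinning nuclei to 900 UMIs, which left out the 1 to 28 nuclei per library that had fewer, the median number of genes was 640.3 ± 8.5 (SD, n = 3) in 3x500g and 630.3 ± 5.03 in 1x2000g (difference -10, exact permutation p = 0.2). Any 2 libraries shared between 12 and 30 cell barcodes, at most 0.367% of the smaller library. Clustering placed the nuclei in 15 classes named from marker genes, and 721 nuclei of 1x2000g and 780 of 3x500g stayed unnamed. Every class name is from expression alone and should be read as "like" that cell type, for example proximal tubule-like. The study's methods removed genes seen in fewer than 10 nuclei of a sample. Between 761 and 1803 of the genes listed stood at 0 in a library, which is no evidence of absence, and 57 to 117 genes per library were nonetheless held by only 1 to 9 nuclei.

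The first question was which RNAs differed when all nuclei of a library were summed. Of 17449 genes tested, 3395 were higher in 1x2000g (19.5%) and 2687 were lower (15.4%) at an adjusted p of 0.05, and the median log2 fold change of all genes was 0.03. The changes were not of equal size in both directions: 733 genes were higher by a log2 fold change of 1 or more, against 25 lower by as much. With DESeq2 in place of edgeR the larger number turned, with 2976 genes higher and 3052 lower. Without 1x2000g replicate 3 the numbers called were 2248 and 1302, and without 3x500g replicate 3 1440 genes were lower. Such sums cannot tell more nuclei of a type from more RNA per nucleus, which the classes further on address.

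Kap, the kidney androgen-regulated protein mRNA of the proximal tubule, had the second largest increase in whole-library sums among called genes that averaged at least 20 CPM in the higher group and whose groups did not overlap. CPM are UMIs of the gene per 1000000 UMIs of the library, and the largest changes described here and for the lower genes are ranked within that set. The Kap gene (ENSMUSG00000032758.4, mm10, chr6:133849851-133853762, minus strand) spans only 3.91 kb. Kap stood at 369, 288 and 306 CPM in the 3 libraries of 3x500g and at 2174, 1466 and 1974 CPM in those of 1x2000g. The groups lay far apart, with 1x2000g replicate 2 the lowest of its group (log2 fold change 2.53, SE 0.19, adjusted p = 0.000272). Spp1 encodes osteopontin, a secreted phosphoprotein, on chr5:104435118-104441050 (plus strand). It measured 138, 142 and 125 CPM in 3x500g and 674, 579 and 677 CPM in 1x2000g, with little spread within either group (log2 fold change 2.24, SE 0.09, adjusted p = 0.000124). Cst3, which encodes the secreted protease inhibitor cystatin C, rose from 35.9, 45.7 and 34.5 CPM to 175, 168 and 189.7 CPM (log2 fold change 2.19, SE 0.10, adjusted p = 0.000124). All 3 genes are short. That their groups did not overlap was a condition of the ranking. Of the 17449 genes tested, 4628 lay higher and 3772 lower in 1x2000g without overlap.

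Among the other genes with the largest increases were genes known from blood, immune and vascular cells. Hbb-bs, a beta globin of red blood cells, which have no nucleus in mice, measured 16.3, 11 and 2.53 CPM in 3x500g and 48.1, 112 and 36.4 CPM in 1x2000g (log2 fold change 2.69, SE 0.64, adjusted p = 0.0169). The 1x2000g libraries were all above the 3x500g libraries, as the ranking required. Replicate 2 of 1x2000g was far above the other libraries of its group, and the SE was the largest among the 80 named genes. Class II antigen presentation genes followed, with H2-Eb1 at 4.25, 9.14 and 3.67 CPM against 25.7, 32.2 and 23.4 CPM (log2 fold change 2.24, adjusted p = 0.00207) and H2-Aa at a log2 fold change of 2.17 (adjusted p = 0.000596). Ifitm3, an interferon-induced membrane protein, rose by 2.15 and Ly6c1, a surface protein of endothelium and monocytes, by 1.99 on the log2 scale. Mgp, the matrix Gla protein that limits calcification, rose by 2.07. Gm43507, annotated as antisense to Ldb2, completed the 10 with the largest increases in that set at 2.01.

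**Figure D1:**
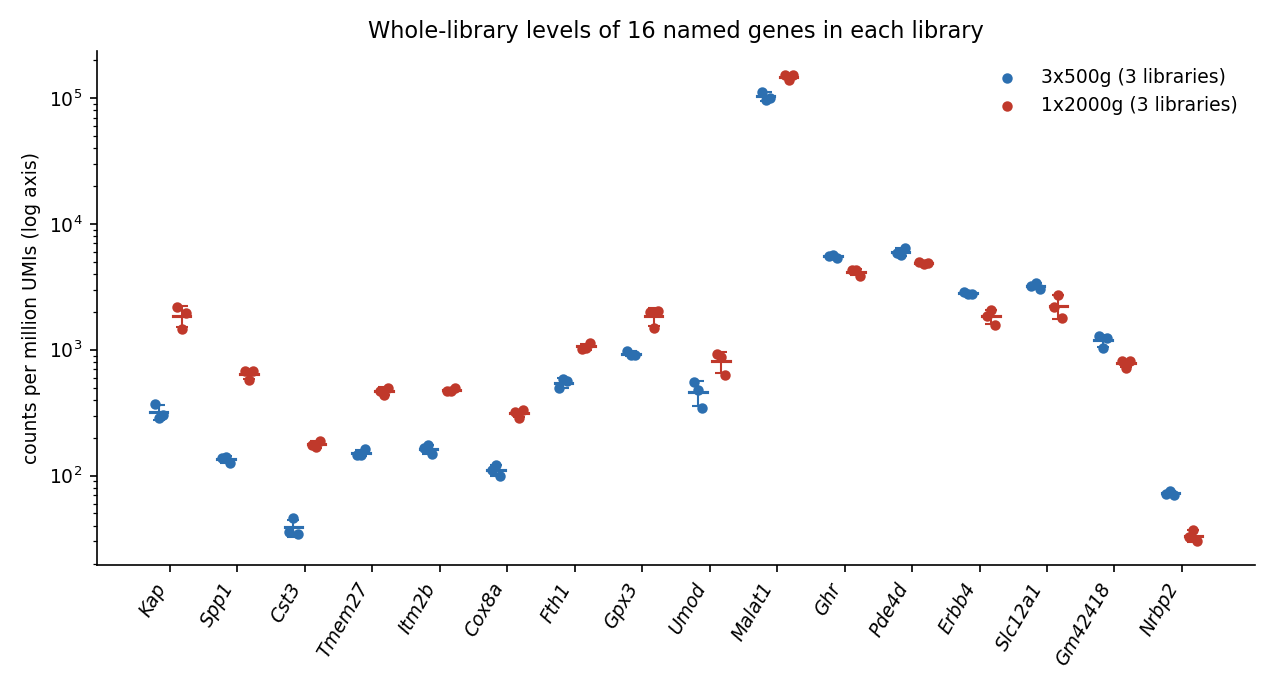
CPM of 16 named genes in whole-library sums, on a log axis, for the 3 libraries of 3x500g (blue) and of 1x2000g (red), with horizontal bars at the group means and error bars of 1 SD. Kap, Spp1, Cst3, Tmem27, Itm2b, Cox8a, Fth1, Gpx3, Umod and Malat1 lie higher in all 3 libraries of 1x2000g, and Ghr, Pde4d, Erbb4, Slc12a1, Gm42418 and Nrbp2 lie lower.

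Genes of cytoplasmic machinery were counted by list, and each count here and in the lists that follow is to be read against the 19.5% of all genes that were higher and the 15.4% that were lower. Of 74 nuclear-encoded respiratory chain genes tested, 59 were higher in 1x2000g and none was lower, with a median log2 fold change of 0.74 against 0.03 over all genes. Cox8a, a subunit of cytochrome c oxidase, measured 109.8, 122 and 99.4 CPM in 3x500g and 319.8, 289 and 330.4 CPM in 1x2000g (log2 fold change 1.49, adjusted p = 0.000154). Ndufa4 rose by 1.71, Ndufc2 by 1.54 and Cox6a1 by 1.41 on the log2 scale, and Atp5a1, a subunit of the ATP synthase, by 0.66. Ndufs4, one of the 3 most abundant members, whose gene spans 100.5 kb, stood at 184, 187 and 189.8 CPM in 3x500g and 194, 198 and 185 CPM in 1x2000g, with overlapping libraries (log2 fold change 0.03, adjusted p = 0.738). The genes of the mitochondrial genome were removed by the authors and were not analysed here.

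Of 78 cytosolic ribosomal protein genes, 58 were higher and 1, Rpl27, was lower (log2 fold change -0.68, adjusted p = 0.0275), and the median was 0.71. Rplp1 went from 43.6 ± 1.48 to 109 ± 22.5 CPM (mean and SD of 3 libraries each) and Rpl41 from 91.7 ± 7.59 to 153 ± 25.7 CPM. Many of these genes have processed pseudogenes, between which the counting may have split or discarded reads.

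The translocon and chaperones of the endoplasmic reticulum moved the same way. Of 26 such genes 24 were higher and none lower, with a median of 0.70. Dad1, a subunit of the oligosaccharyltransferase, rose by 1.51, the cyclophilin Ppib by 1.32 and calreticulin (Calr) by 1.25 on the log2 scale. The 2 members that did not pass were Sec61a1 (log2 fold change 0.06, adjusted p = 0.476) and Sec11a (0.17, adjusted p = 0.380), and the annotation of Sec11a overlaps Nmb on the same strand.

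Of 20 lysosomal genes tested, 16 were higher and 1 was lower, with a median log2 fold change of 0.49. Cathepsin L (Ctsl) rose the most, from 25.7 ± 4.07 to 94.6 ± 4.32 CPM (log2 fold change 1.87). Lamp1, a membrane protein of the lysosome with a gene of 16.2 kb, measured 74.1, 83.5 and 75.3 CPM in 3x500g and 176, 180.4 and 184 CPM in 1x2000g, whereas Lamp2, with a gene of 55.1 kb, measured 332, 334 and 354 CPM and 441, 407 and 453 CPM. The log2 fold changes were 1.20 and 0.34, and both passed the test, although Lamp2 did not without 1x2000g replicate 1 or 3 (adjusted p up to 0.0542).

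In the list of ferritins, metallothioneins and peroxide defence, 12 of 16 genes were higher and none was lower (median 0.72). The iron store subunits Fth1 and Ftl1 rose from 549 ± 49.7 to 1061 ± 57.6 CPM and from 481 ± 47.9 to 786 ± 34.0 CPM. Gpx3, the glutathione peroxidase that the proximal tubule secretes into plasma, measured 976, 903 and 916 CPM in 3x500g and 1979.9, 1498 and 2039 CPM in 1x2000g (log2 fold change 0.97, adjusted p = 0.00250). The metallothioneins Mt1 (log2 fold change 0.54, adjusted p = 0.0751) and Mt2 (0.16, 0.585) did not pass.

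All 4 globin genes were higher (median log2 fold change 2.65), and so were 6 of 7 class II genes (median 1.76) and 5 of 8 class I genes (median 0.63). Cd74, the invariant chain, stood at 13.6, 28.2 and 12.1 CPM in 3x500g, where replicate 2 was the highest, and at 62.8, 88.0 and 55.1 CPM in 1x2000g. Ciita, the transcriptional activator of class II genes, was the member that did not pass (log2 fold change 0.24, adjusted p = 0.496). Hba-a1 and Hba-a2 are near-identical copies and their separate counts are uncertain.

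The 17 stress-response genes of the study, immediate early and heat shock genes that tissue handling can induce, were 8 higher and 0 lower, against 19.5% and 15.4% of all genes (median 0.48). Those that rose included the chaperones Hspa8, from 41.7 ± 4.88 to 78.3 ± 12.2 CPM, Hsp90ab1 (log2 fold change 1.06) and Hspb1 (1.48), and Jun (0.43) and Jund (0.59). Fos (log2 fold change 0.21, adjusted p = 0.550), Egr1 (-0.10, 0.735) and Dusp1 (0.24, 0.667) did not pass.

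The genes that were lower in 1x2000g changed less. Nrbp2, a pseudokinase gene on chr15:76085518-76091627, measured 71.2, 75.9 and 70.6 CPM in 3x500g and 32.7, 37.1 and 30.1 CPM in 1x2000g (log2 fold change -1.14, SE 0.08, adjusted p = 0.000199). Kcnt1, a sodium-activated potassium channel, fell from 38.3 ± 3.38 to 18.8 ± 1.14 CPM (log2 fold change -1.04). Dvl1, a cytoplasmic relay of Wnt signalling, stood at 127, 127 and 128 CPM against 74.9, 68.8 and 72.2 CPM (log2 fold change -0.83, adjusted p = 0.000332). The remaining 7 of the 10 largest decreases among called genes of at least 20 CPM without overlap were Aspg, Inpp5j, Ybx2, Lgals4, Lrrc45, Taco1 and Sim2, with log2 fold changes from -0.92 to -0.83. Lgals4 lost its call when any library other than 3x500g replicate 1 was left out (adjusted p up to 0.123).

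Genes that encode components of the nucleus did not follow the cytoplasmic lists. These lists go by where the gene product works, and where the RNA lay was not tested. Over all genes 19.5% were higher and 15.4% lower. Among 18 genes of the nuclear pore and lamina 0 were higher and 5 lower (median -0.11), among them Syne2, from 558 ± 17.6 to 433 ± 23 CPM, and Nup214, from 109 ± 0.102 to 83.6 ± 3.63 CPM. Tpr, which encodes a pore basket protein, was at 139.6, 142 and 132 CPM and 137, 141 and 129.7 CPM, with overlapping libraries (log2 fold change -0.04, adjusted p = 0.670). The genes of Syne2, Nup214 and Tpr span 292.8, 79.5 and 57.1 kb, and the part of gene span in these values was not tested. Among 17 spliceosome and paraspeckle genes 1 was higher, Srsf7 (0.28), and 6 were lower, including Srsf6 (-0.58), Sfpq (-0.41) and Srrm2 (-0.32), with a median of -0.15.

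Long noncoding RNAs that stay in the nucleus did not move together. Malat1 made up 11.2%, 9.74% and 10.0% of all UMIs in the 3x500g libraries and 15.2%, 14% and 15.2% in the 1x2000g libraries (log2 fold change 0.51, adjusted p = 0.0276). Xist, which coats the inactive X chromosome, rose by 0.24 (adjusted p = 0.0283). Both calls were lost when any library other than 3x500g replicate 2 was left out, with adjusted p up to 0.168 for Malat1 and 0.105 for Xist, and that of Xist also with RLE size factors in place of TMM. Neat1, the scaffold of paraspeckles, stood at 2587, 2026 and 2191 CPM and 2203, 1648 and 1930.1 CPM, overlapping between the groups (log2 fold change -0.25, adjusted p = 0.245). Kcnq1ot1, an imprinted antisense transcript, fell from 517 ± 23.6 to 380.1 ± 26.7 CPM and Gm26917 fell from 429 ± 89.6 to 268 ± 16.4 CPM. In all, 3 of the 10 tested were higher and 2 lower, numbers near the 19.5% and 15.4% of all genes. CPM are shares of a total that includes Malat1.

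The median change followed the length of the gene. Of 2083 tested genes whose annotated span is under 5 kb, 41.6% were higher in 1x2000g and 3.70% lower, with a median log2 fold change of 0.48. Of 1022 genes over 200 kb, 8.90% were higher and 33.3% lower, with a median of -0.17. Genes of 20 to 50 kb lay between, at a median of -0.03. The order was the same when single classes were summed, from 0.47 to -0.20 in the proximal tubule, from 0.56 to -0.25 in the thick ascending limb and from 0.64 to -0.22 in the endothelium. The 10 largest decreases given above were not in the longest genes: their spans ran from 5.81 kb (Ybx2) to 54.5 kb (Kcnt1), with Nrbp2 at 6.11 kb. A span was found for 16812 of the 17449 genes. These are descriptions over genes, which are not independent replicates, and no test was made.

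**Figure D2:**
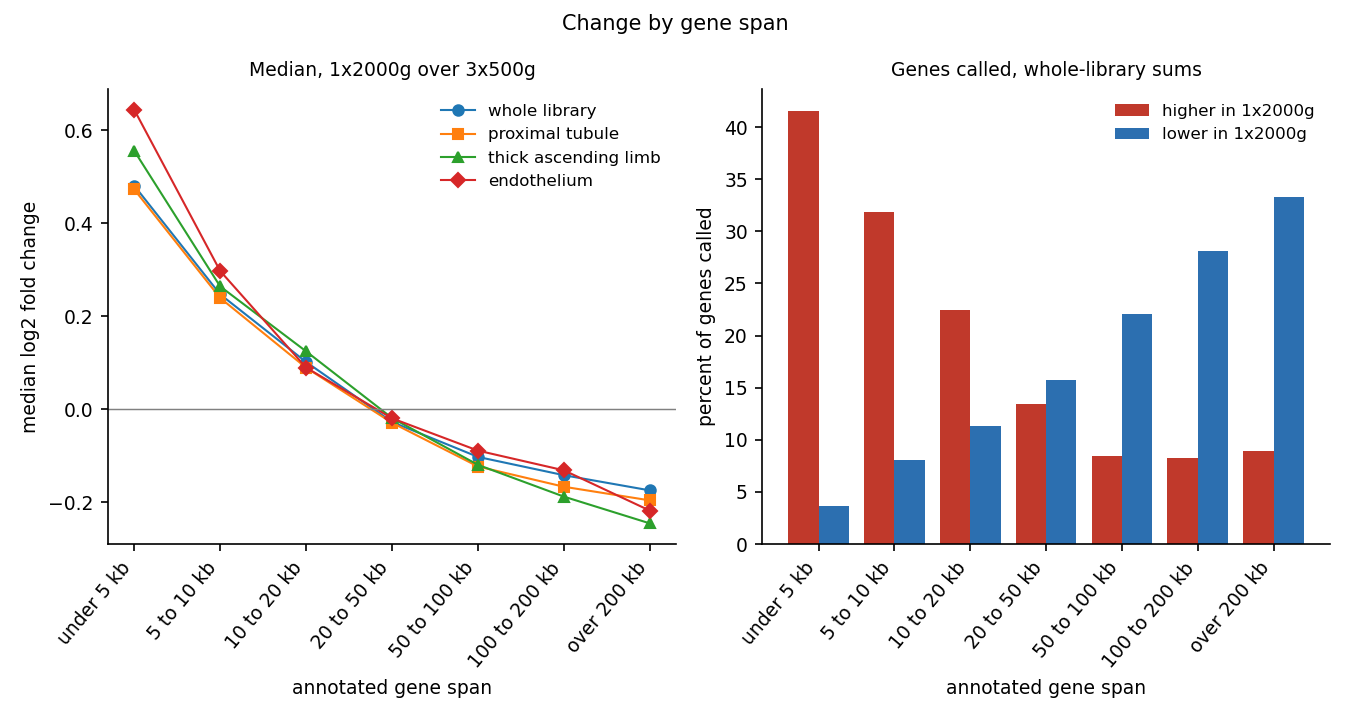
Left, median log2 fold change (1x2000g over 3x500g) of tested genes by annotated gene span, for whole-library sums and 3 classes. Right, percent of genes called higher (red) or lower (blue) in whole-library sums. The median falls from 0.48 under 5 kb to -0.17 over 200 kb.

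Within the 15 classes the question was whether the same RNAs differed in nuclei of 1 kind. Of 16163 genes tested in at least 1 class, 3403 were higher in at least 1 (21.1%) and 2520 were lower in at least 1 (15.6%), and 38 were higher in 1 class and lower in another. The proximal tubule, with the most nuclei, had 2259 higher (14.8%) and 1389 lower (9.13%) of 15217 genes. The thick ascending limb had 15.0% higher and 8.97% lower of 12732, the endothelium 13.3% and 7.40% of 11166, and the macrophages 3.21% and 2.81% of 4052. The classes differ in numbers of nuclei and of genes tested. Of the 1899 genes tested in all 15 classes 30 were higher in each of them (1.58%) and 0 lower in each.

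The genes called in all 15 classes included Kap, Spp1, Cst3, Chchd10, Tmem27, Ndufa4, Napsa, Cyba, Tmem176a and Cd81, the 10 with the largest mean change among them. Chchd10 is a protein of the mitochondrial intermembrane space, Cyba a subunit of the NADPH oxidase, Cd81 a tetraspanin and Napsa an aspartic protease of the proximal tubule lysosome. Spp1 had log2 fold changes of 1.81 to 3.10 over the classes and Cst3 of 1.55 to 2.85. In the macrophages, which make much cystatin C, Cst3 measured 357 ± 83.8 CPM against 1576 ± 108 CPM (3x500g against 1x2000g), and in the proximal tubule 21.8 ± 2.46 CPM against 87.8 ± 6.66 CPM. Beside this, the make-up of the macrophage class shifted: the 8 macrophage markers took 0.101% ± 0.0282 of its UMIs in 3x500g and 0.261% ± 0.0186 in 1x2000g, and their part in the difference was not tested. The level differed between the classes while the log2 fold changes were 2.11 and 2.01.

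Of the 10 genes that the study lists for the most cell types as higher with the single wash, Cox8a, Fth1, Itm2b, Kap, Spp1, Tmem27, Napsa, Gm26804, Gpx3 and Ftl1, each was higher in all 15 classes and in the whole-library sums. Since that list was chosen on these libraries, it is not independent evidence of its direction. Itm2b, a membrane protein of the secretory pathway, measured 165, 174 and 148 CPM in 3x500g and 467, 472 and 493 CPM in 1x2000g as a whole. Gm26804, a lincRNA whose gene spans 128.3 kb, went from 260.1 ± 37.5 to 515 ± 47.2 CPM, with class log2 fold changes of 0.94 to 1.42.

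No gene was lower in more than 11 classes. Nhs, whose X-linked gene spans 326.4 kb, was lower in 11, with 2079, 1919 and 2366 CPM in 3x500g and 1608, 1528 and 1683 CPM in 1x2000g as a whole, a call lost when any library other than 3x500g replicate 2 was left out (adjusted p up to 0.0794). Genes lower in 10 classes were Bnc2, Erbb4, Shank2, Pkhd1, Sugct, Snx29 and Igf1r, each spanning over 200 kb. Bnc2 was not called in the whole-library sums (log2 fold change -0.22, adjusted p = 0.145). Of the 4 genes the study lists as lower for more than 1 cell type, again a list chosen on these libraries, Ghr was lower in 8 classes, Gm42418, whose annotation overlaps AY036118 on the other strand, in 9, and Pde4d and Slc8a1 in 5 each. Ghr, the growth hormone receptor, stood at 5529, 5665 and 5368 CPM against 4273, 4331 and 3869.7 CPM, and Pde4d, a cAMP phosphodiesterase whose gene spans 1504 kb, at 5855, 5679 and 6437 CPM against 5014, 4789.6 and 4917 CPM. The call of Pde4d (adjusted p = 0.0405) was lost without any library other than 3x500g replicate 2 (up to 0.128). Slc8a1, a sodium and calcium exchanger of the connecting tubule, was at 4049, 2099.8 and 2871 CPM and 2871, 1408 and 1724 CPM, with wide spread and overlap (adjusted p = 0.205).

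**Figure D3:**
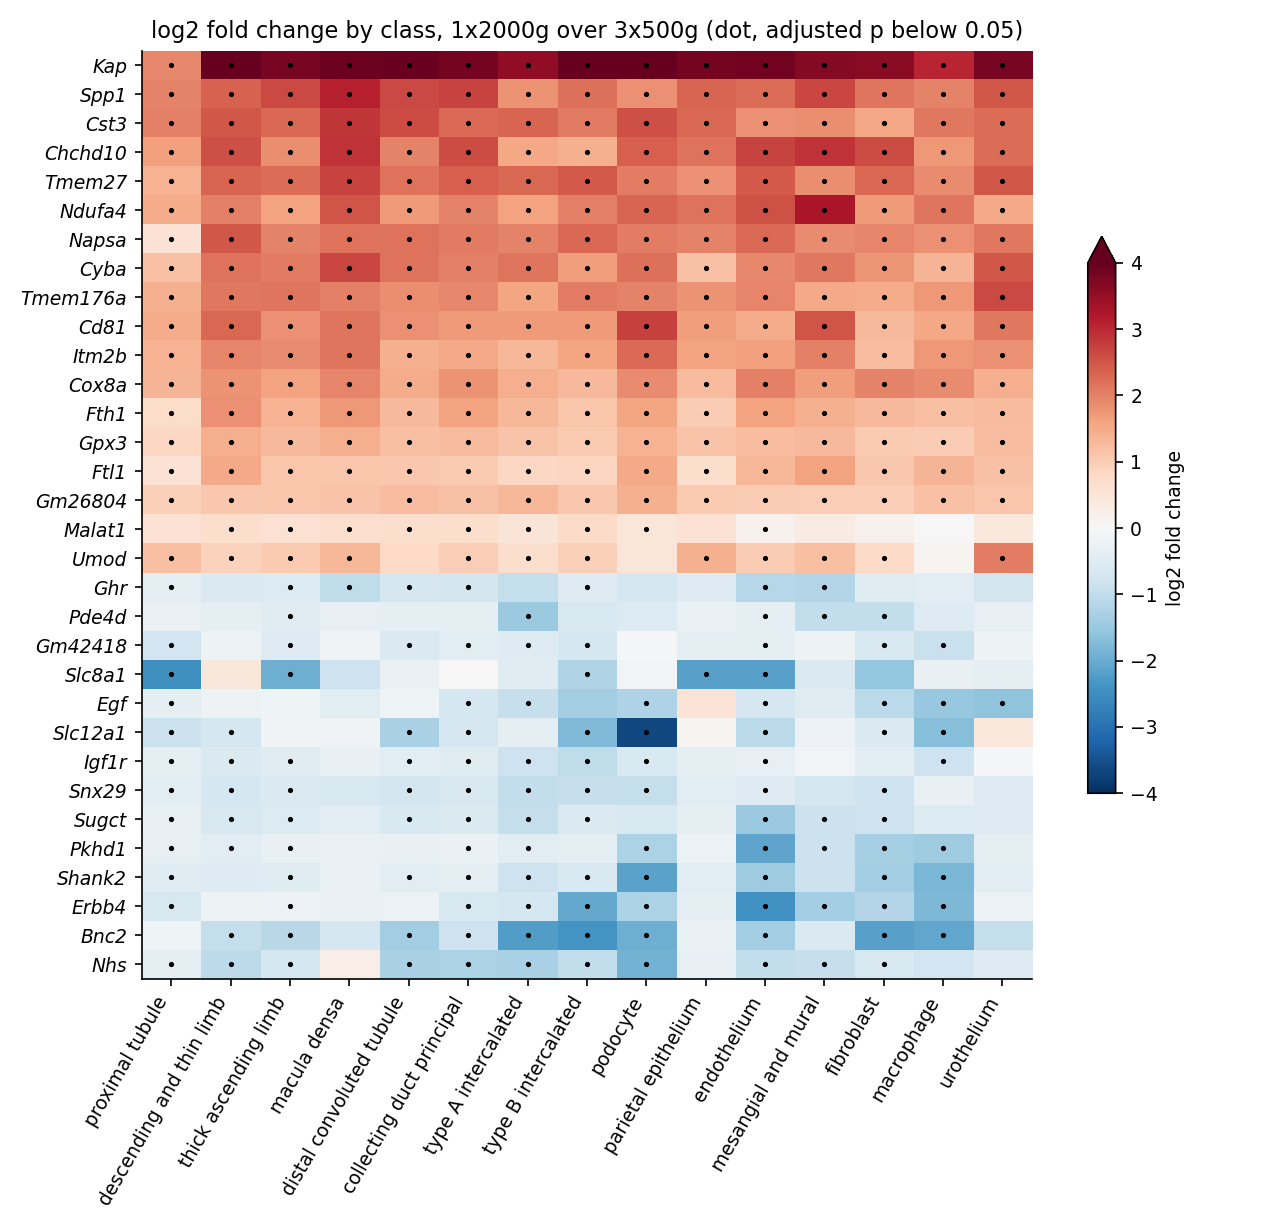
Log2 fold change (1x2000g over 3x500g) of 32 named genes (rows) in the 15 classes of nuclei (columns), red for higher and blue for lower in 1x2000g, with a dot where the adjusted p was below 0.05. Values above 4 share the darkest red. The 16 genes from Kap to Gm26804 carry a dot in every class, and Kap is palest in the proximal tubule.

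Some tubule genes that fell were followed into classes other than their own. Erbb4, Pkhd1 and Slc12a1 were named for being lower in the most classes, so their falls there reflect that choice and are not separate evidence. Of 6 thick limb transcripts tested in the endothelium, 2 were higher and 2 lower, against 13.3% and 7.40% of all genes. Differences between classes were not tested. Erbb4, a receptor tyrosine kinase of the distal nephron, measured 13286 ± 528 CPM against 11099 ± 234 CPM in the thick ascending limb (log2 fold change -0.24) but 436 ± 98.8 CPM against 80.3 ± 13.8 CPM in the endothelium (-2.42). Pkhd1, the fibrocystin of tubule cilia, had log2 fold changes of -0.29 in the thick ascending limb and -2.11 in the endothelium. Slc12a1, which defines the thick ascending limb, stood there at 19942 ± 1830.0 CPM against 17673 ± 1008 CPM, with overlap (adjusted p = 0.224), and in the podocytes at 1047 ± 195 CPM against 80.6 ± 21.3 CPM (log2 fold change -3.63, adjusted p = 2.04e-08). Beside these, the 8 thick ascending limb markers together made up 0.130% ± 0.0162 of podocyte UMIs in 3x500g and 0.0143% ± 0.00308 in 1x2000g, and 0.0467% ± 0.00610 against 0.0258% ± 0.00340 in the endothelium, without overlap in either class. Slc12a1 is itself among the 8 and gave most of the podocyte sums, so these are not separate from its own fall. With nuclei marked as doublets removed, a choice made after the data were seen, these falls changed in both directions. The log2 fold change of Slc12a1 in podocytes went from -3.63 (adjusted p = 2.04e-08) to -1.82 (adjusted p = 0.00838), that of Erbb4 from -1.25 (adjusted p = 0.00337) to -0.69 (adjusted p = 0.0238) and that of Egf from -1.24 (adjusted p = 0.00474) to -0.20 (adjusted p = 0.798), which ended its call, while that of Pkhd1 went from -1.25 (adjusted p = 0.00156) to -1.91 (adjusted p = 0.00194). In the macrophages the falls were larger without those nuclei, as Slc12a1 went from -1.70 (adjusted p = 0.00707) to -3.07 (adjusted p = 0.00262), Erbb4 from -1.80 (adjusted p = 0.00264) to -3.21 (adjusted p = 0.00407), Egf from -1.52 (adjusted p = 0.0128) to -2.84 (adjusted p = 0.00145) and Pkhd1 from -1.42 (adjusted p = 0.00295) to -2.26 (adjusted p = 0.000318). In the fibroblasts Erbb4 went from -1.18 (adjusted p = 0.000466) to -2.26 (adjusted p = 8.76e-05) and Pkhd1 from -1.34 (adjusted p = 0.00142) to -2.79 (adjusted p = 4.88e-05), while Slc12a1 went from -0.57 (adjusted p = 0.0346) to -0.94 (adjusted p = 0.0816) and lost its call. In the endothelium and the proximal tubule all 4 genes kept their calls, with Erbb4 in endothelium at -2.34 (adjusted p = 3.46e-08). With clusters holding markers of a second class left out, also chosen after the data were seen, the fibroblast calls of Slc12a1 and Egf were lost. There Slc12a1 was at -0.08 (adjusted p = 0.934), and Egf went from -1.08 (adjusted p = 0.00142) to -1.01 (adjusted p = 0.0943). The calls of the 4 genes in the macrophages, endothelium and proximal tubule were kept. In the podocytes the values of all 4 genes were unchanged, with Slc12a1 at -3.63 as before, so this choice did not test the podocyte falls.

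RNAs abundant in the proximal tubule were followed through all classes. Some of them are also made by other cells, such as Ass1 by endothelium, and which class made the molecules was not tested. The list holds 16 transcripts, among them Kap, Gpx3, Napsa, Tmem27, the trypsin inhibitor Spink1, and enzymes of sugar and amino acid metabolism (Miox, Fbp1, Pck1, Gatm, Ass1, Acsm2). Outside the proximal tubule they made up 0.185, 0.148 and 0.137 percent of UMIs in 3x500g and 0.619, 0.461 and 0.595 percent in 1x2000g. The means were 0.157% ± 0.0253 and 0.559% ± 0.0850 (SD, n = 3), 3.56-fold apart with no overlap (exact two-sided permutation p = 0.1, the smallest possible). In the proximal tubule itself the same list took 0.808% ± 0.00705 and 1.11% ± 0.0767. In the endothelium, where 13.3% of all genes were higher, all 15 members tested were, with a median log2 fold change of 2.13, and in the proximal tubule 7 of 16 were higher, against 14.8% of all genes, with a median of 0.21. Without the members that the study lists for several cell types, the list outside the proximal tubule was at 0.0601% ± 0.0202 and 0.122% ± 0.0165, 2.03-fold apart. The study picked those members on these libraries, so the 3.56-fold difference depends in part on that choice. The 16 transcripts were also chosen with earlier results of these data known.

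Within the list the members differed. In whole-library sums Kap, Tmem27 (log2 fold change 1.62), the guanylate cyclase ligand Guca2b (1.52), Spink1 (1.14), Gpx3, Ttc36 (0.93) and Napsa (0.81) rose, while Acsm2 (-0.22), Ass1 (-0.18), Miox (0.12), Pck1 (0.14), Gatm, Fbp1, Cyp2e1 and Calml4 did not pass. Miox was nonetheless higher in 13 of 15 classes. Napsa shows the contrast between classes: in the proximal tubule it was at 709 ± 119 CPM against 1048 ± 158 CPM (log2 fold change 0.56) and in the endothelium at 138 ± 22.1 CPM against 653 ± 26.3 CPM (2.26).

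The number of Kap molecules per nucleus varied little among the classes outside the proximal tubule in 1x2000g. In 1x2000g the 14 other classes had means of 5.51 to 6.26 Kap UMIs per nucleus, and in 3x500g of 0.283 to 0.775. Endothelial nuclei held 0.385 ± 0.0248 in 3x500g and 6.01 ± 1.29 in 1x2000g, thick ascending limb nuclei 0.398 ± 0.0685 and 5.75 ± 1.20, and podocyte nuclei 0.351 ± 0.117 and 5.79 ± 1.35 (mean and SD of 3 libraries). Proximal tubule nuclei held 2.28 ± 0.148 and 8.91 ± 1.83. As a share of UMIs, Kap in the endothelium was 0.0254, 0.0228 and 0.0210% in the 3x500g libraries and 0.391, 0.259 and 0.327% in the 1x2000g libraries. In the endothelium, as in the proximal tubule, 1x2000g replicate 2 was the lowest of its group. The share in the endothelium of 1x2000g exceeded that in its proximal tubule, where endothelial nuclei had medians of 1639 to 1665 UMIs and proximal tubule nuclei of 4828.5 to 5001. Whether free RNA in the droplets supplied these molecules was not tested, since empty droplets were not analysed here.

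The 17 markers used to name the proximal tubule, mostly transporters and endocytic receptors such as Lrp2, Cubn and Slc34a1, share only Acsm2 with that list. In the proximal tubule they took 1.74, 1.80 and 1.76% of UMIs in 3x500g and 1.54, 1.58 and 1.51% in 1x2000g, lower in all 3 libraries. In the thick ascending limb they took 0.143% ± 0.0594 and 0.117% ± 0.00724, with overlap, in the endothelium 0.146% ± 0.00442 and 0.163% ± 0.00506. Over the 14 other classes the fold of the group means ran from 0.624 to 1.15 for the markers and from 1.84 to 4.24 for the 16 transcripts.

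**Figure D4:**
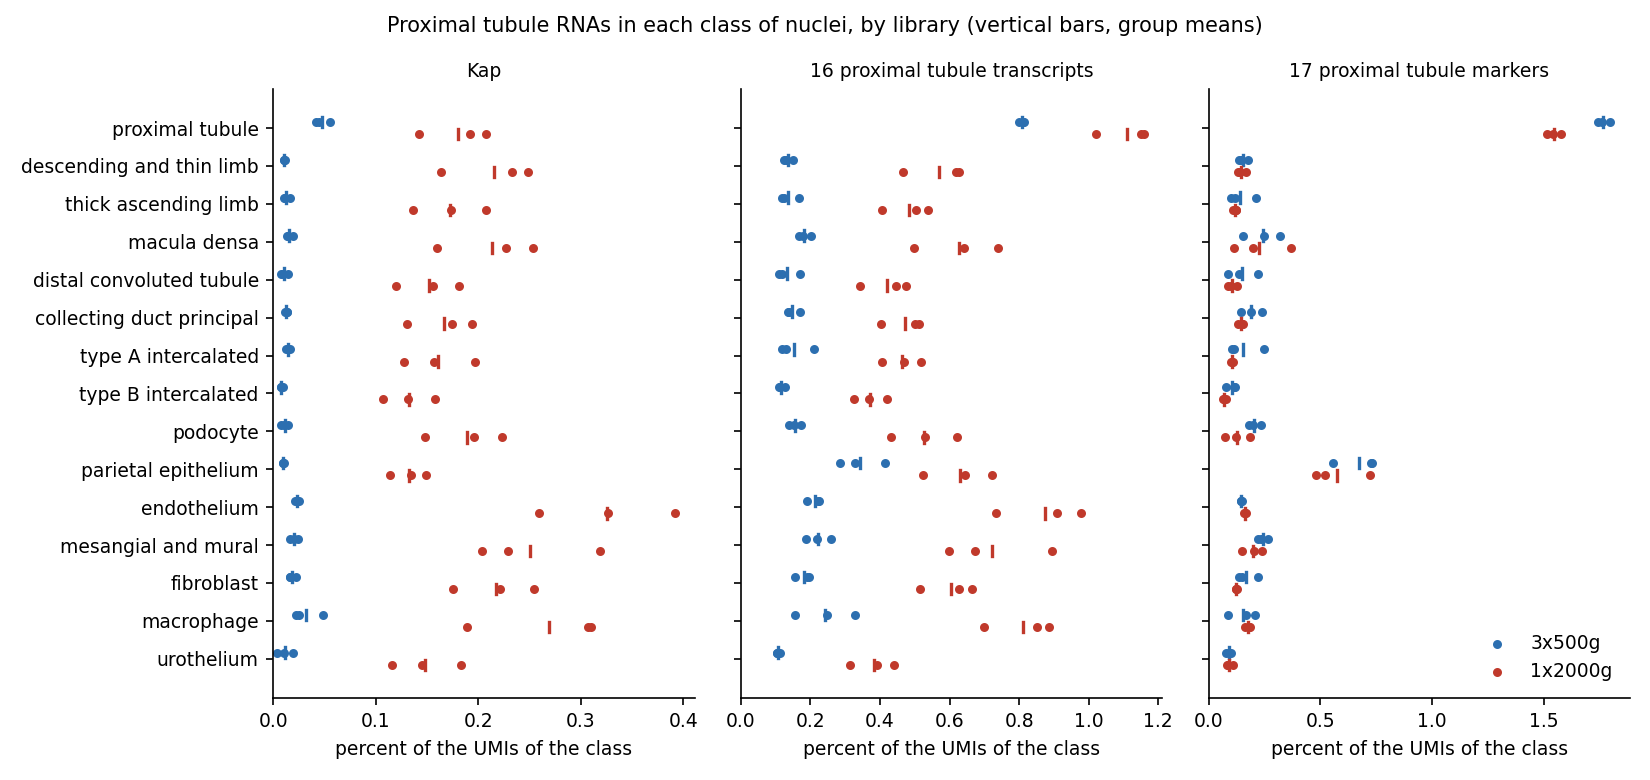
Percent of the UMIs of each class taken by Kap (left), by the 16 proximal tubule transcripts (middle) and by the 17 proximal tubule markers (right), a point for each library of 3x500g (blue) and 1x2000g (red), with vertical bars at group means. Kap and the 16 transcripts lie higher in all 1x2000g libraries in every class, and the markers lie lower in the proximal tubule.

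The transcripts of the thick ascending limb were treated the same way. Outside that class, the macula densa and the distal convoluted tubule, 7 of its abundant transcripts made up 0.0751% ± 0.00683 of UMIs in 3x500g and 0.0746% ± 0.00716 in 1x2000g (exact permutation p = 0.7). Without Umod, the one member that the study lists for several cell types, the shares were 0.0609% ± 0.00355 and 0.0440% ± 0.00331, lower in all 3 libraries of 1x2000g (exact permutation p = 0.1). The study listed Umod as higher in these same libraries. Leaving it out therefore shifts the comparison toward a fall, and this result is not separate evidence of one. The members moved in opposite directions. Umod, with a gene of 16.6 kb, was higher in 12 of 15 classes and measured 556, 475 and 348 CPM in 3x500g and 926, 869 and 632 CPM in 1x2000g as a whole (log2 fold change 0.80, adjusted p = 0.0218). Slc12a1 and Egf, with genes of 77.5 and 77.8 kb, were lower in 9 and 8 classes and fell by 0.54 each on the log2 scale in the whole-library sums. Of these whole-library calls, that of Umod was lost without 3x500g replicate 2 or 3 or 1x2000g replicate 1 or 2 (adjusted p up to 0.0711), that of Slc12a1 without any 3x500g library or 1x2000g replicate 1 (up to 0.0694) and that of Egf without 1x2000g replicate 3 (0.0549). In the thick ascending limb itself Umod was at 2104 ± 319 CPM against 4321 ± 478 CPM, Slc12a1 and Egf did not pass, and the class held 18.8%, 16.3% and 16.0% of nuclei in 3x500g and 13.5%, 15.4% and 10.4% in 1x2000g.

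The cytoplasmic lists were also counted in separate classes, where 14.8% of all genes were higher in the proximal tubule, 15.0% in the thick ascending limb and 13.3% in the endothelium. Respiratory chain genes were 53 of 74 higher in the proximal tubule (median 0.61), 58 of 74 in the thick ascending limb (0.75) and 65 of 74 in the endothelium (1.41), with none lower in these classes. Ribosomal protein genes were 48 of 78, 55 of 76 and 54 of 71 higher in the same classes and 0 lower. Fewer members passed in some classes where fewer of all genes did. In the macrophages, with 3.21% of all genes higher, 7 of 41 respiratory chain and 3 of 32 ribosomal genes were higher. In the parietal epithelium the numbers were 11 of 49 and 6 of 37, against 2.02% of all genes, and in the urothelium 7 of 27 and 13 of 42, against 2.87%. In the endothelium, with 13.3% of all genes higher and 7.40% lower, 0 of 17 nuclear pore and lamina genes were called, and 6 of 9 nuclear long noncoding RNAs were lower and 1, Malat1, was higher (log2 fold change 0.16, adjusted p = 0.0337). In the proximal tubule the Malat1 levels did not overlap, but the difference did not pass (log2 fold change 0.57, SE 0.19, adjusted p = 0.0662). Over the 15 classes Malat1 was higher in 9 and lower in 0, with log2 fold changes of 0.03 to 0.77.

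Red blood cell RNA was higher in tubule nuclei too. The 4 globin genes took 0.000865, 0.000734 and 0.000440% of the UMIs of the thick ascending limb in 3x500g and 0.00511, 0.0224 and 0.00548% in 1x2000g, where replicate 2 was the highest. In the endothelium the values were 0.00219, 0.0218 and 0.00254% and 0.0127, 0.0674 and 0.0137%, and the groups overlapped.

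The last question was whether the 2 preparations gave the same kinds of nuclei. Proximal tubule nuclei made up 43.4% ± 1.36 of a library in 3x500g and 43.7% ± 0.267 in 1x2000g. Of 15 classes 1 differed at an adjusted p of 0.05 (6.67%), the macrophages, with 39, 50 and 29 nuclei in the 3x500g libraries and 84, 83 and 85 in the 1x2000g libraries. That was 0.507% ± 0.129 against 0.958% ± 0.0432 of nuclei (log2 fold change 0.91, SE 0.18, adjusted p = 0.0386). The call was lost when any single library other than 3x500g replicate 2 was left out, with adjusted p between 0.111 and 0.149 and log2 fold changes between 0.80 and 0.93. With all 6 libraries the call was kept, but the log2 fold change fell to 0.61 with clustering at resolution 1 and to 0.71 with doublets removed. Under the other alternatives it was 0.90 to 0.92. The nuclei in the class also differed in make-up: the 8 macrophage markers took 0.101% ± 0.0282 of its UMIs in 3x500g and 0.261% ± 0.0186 in 1x2000g, and the thick ascending limb markers 0.549% ± 0.161 and 0.177% ± 0.0625, each without overlap. Their part in the macrophage results was not tested. Of 6 class II genes tested in these nuclei 5 were higher and 1 was not called, against 3.21% of all genes higher in the class. H2-Eb1 was at 587 ± 170.3 CPM against 2213 ± 185 CPM (log2 fold change 1.90) and Cd74 at 1454 ± 302 CPM against 4355 ± 487 CPM (1.58). Cd74 was also higher in proximal tubule nuclei, at 8.14 ± 4.34 CPM against 23.7 ± 5.62 CPM.

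Other classes did not pass. Endothelial nuclei numbered 611, 865 and 767 in 3x500g and 1211, 1063 and 1559 in 1x2000g, 9.80% ± 2.38 against 14.5% ± 2.27, with no overlap but a wide spread (log2 fold change 0.57, SE 0.22, adjusted p = 0.154). Fibroblasts were 2.85% ± 0.978 and 3.98% ± 0.632 (log2 fold change 0.49, SE 0.27, adjusted p = 0.298). Thick ascending limb (log2 fold change -0.38, SE 0.16, adjusted p = 0.173), distal convoluted tubule (log2 fold change -0.27, SE 0.09, adjusted p = 0.139) and macula densa nuclei (log2 fold change -0.59, SE 0.17, adjusted p = 0.108) took lower shares of nuclei in all 3 libraries of 1x2000g, while of their numbers of nuclei those of the macula densa alone did not overlap between the groups. The macula densa passed with doublets removed (adjusted p = 0.0489), with called genes kept out of the clustering (0.0217), with DESeq2 (0.0494) and without 3x500g replicate 2 (0.0494), and the distal convoluted tubule passed with DESeq2 (0.0494). Podocytes, 117, 58 and 42 against 66, 66 and 75, overlapped, and 3x500g replicate 1 held the most. Shares depend on which nuclei survive homogenization, the strainer and the sort, and a share that falls may reflect others that rise.

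**Figure D5:**
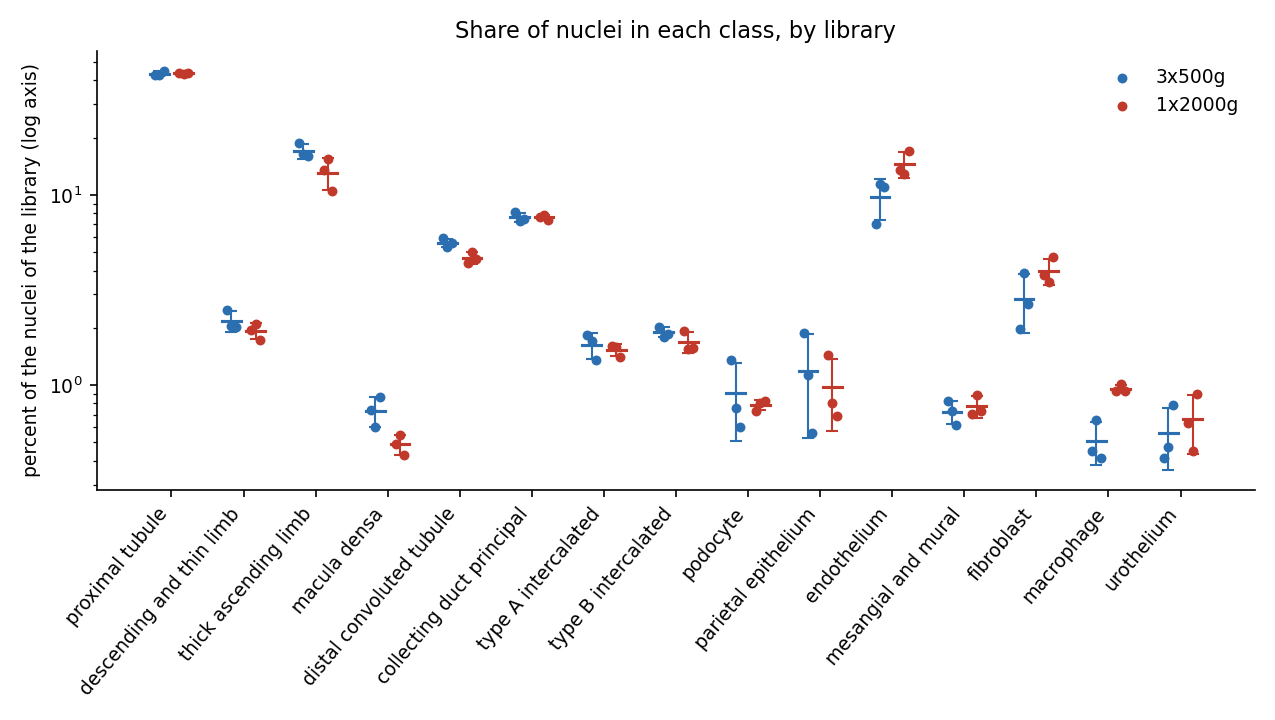
Percent of the nuclei of each library in the 15 classes, on a log axis, with points for the 3 libraries of 3x500g (blue) and 1x2000g (red), bars at the group means and error bars of 1 SD. The macrophage class, the one that passed the edgeR test with all 6 libraries, stood at 0.507% against 0.958% of nuclei.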

How the data were processed

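RNA of sorted nuclei was counted in 6 libraries. Per the labels and the study's methods, the authors mapped droplet reads with Cell Ranger 2.1.1 to mm10 with introns included, kept barcodes called as nuclei with 200 to 3000 genes, under 50% mitochondrial reads and at least 900 UMIs, removed outliers beyond 3 MAD, genes seen in fewer than 10 nuclei and mitochondrial genes, and deposited a matrix of UMI counts for each library. The deposited counts were used unchanged, although they hold 1 to 28 nuclei under 900 UMIs and 57 to 117 genes in 1 to 9 nuclei per library. They came from 1 kidney per library, with 27228611 to 35170947 UMIs each.

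Nuclei of these and 3 further Balb/c libraries were clustered together (2000 variable genes, 30 principal components, 20 neighbors, Leiden at resolution 2, leidenalg 0.10.2), and clusters were named from marker genes. Doublets were marked from simulated pairs and kept, with their removal as an alternative. Counts were summed per library, and per library and class, and tested with edgeR 4.0.16 (R 4.3.3; TMM factors, filterByExpr, quasi-likelihood test, Benjamini-Hochberg adjustment over all genes of the fit, adjusted p of 0.05). The same quasi-likelihood test compared nuclei numbers between the groups, with the total of each library as offset. Single values were compared by exact two-sided permutation. The scripts were tested on simulated data with known changes, called at the same adjusted p of 0.05. Of the calls 8.97% were false in whole-library sums, 8.50% in the endothelium and 1.19% in the macrophages. Changes of 1.5-fold were recovered for 42.2%, 36.4% and 1.69% of changed genes, and of 4-fold for 92.3%, 96.9% and 93.8%. The false shares in whole-library sums and the endothelium were above the 0.05 aimed at. Far fewer genes were changed than were called in the data, with 145 calls among 16943 genes in the simulated whole-library sums. The false shares therefore do not give the false share among the reported calls. For numbers of nuclei, 97.5% of changed classes were recovered at a log2 change of 1.5, with 0.3 false calls per simulation.

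Named genes were the 10 with the largest change in each direction among called genes of at least 20 CPM without overlap, the up to 10 called in most classes, the genes the study lists for the most cell types, and the 3 most abundant members of every other list; some genes that met these rules are not reported here. The members and lists were chosen with earlier results of these data known. DESeq2 1.42.0, other scaling, no filter, left-out libraries, other clusterings and doublet removal were the alternatives. Coordinates and spans are those of GENCODE M21 on mm10.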

Additional observations from a re-analysis of the deposited data

Results flagged for a closer look

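The 17 markers of the proximal tubule moved in opposite directions between classes, in libraries that did not overlap. The ratio of their share of UMIs in 1x2000g to that in 3x500g was 0.874 in the proximal tubule and 0.731 in the fibroblasts, lower in all 3 libraries of 1x2000g, and 1.11 in the endothelium, higher in all 3. The difference between the classes was not tested.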

How the results depend on the processing

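Numbers of genes kept within 1.5 times of those reported under DESeq2, other scaling, no filter, doublet removal and other clusterings, but with DESeq2 more genes were lower (3052) than higher (2976) in whole-library sums, against 2687 and 3395 as reported. With a log2 fold change of 1 also required, 733 genes were higher and 25 lower in whole-library sums, and the study's thresholds left 94 higher and 26 lower in at least 1 class. Leaving out 1 library gave 2248 to 3525 higher and 1302 to 2514 lower in whole-library sums, and 2301 to 3229 and 1172 to 2258 in at least 1 class. The lowest counts came without 1x2000g replicate 3, and the lower genes also fell below 1.5 times without 3x500g replicate 3 (1440 and 1366) and, in classes, without 1x2000g replicate 2 (1507).

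The number of classes whose share differed was 2 with doublets removed or with called genes kept out of the clustering (macrophage and macula densa), 3 with DESeq2 (these and the distal convoluted tubule), and 0 to 2 with 1 library left out. The difference in median UMIs per nucleus was -17.2 in proximal tubule nuclei and ran from -25.2 (without 3x500g replicate 1) to 284. The difference in median genes was 80.0 without thinning, and from -14.2 to -5.67 with 1 library left out. The difference in the share of proximal tubule transcripts outside their class ran from 0.371 to 0.450 percentage points with 1 library left out. That of the thick limb transcripts, -0.000450 as reported, was 0.00911 with doublets removed, 0.00942 in endothelial nuclei, 0.00563 without clusters holding markers of a second class (chosen after seeing the data, as was the next), 0.00121 clustered without called genes, and -0.00412 to 0.00346 with 1 library left out. The causes were not tested.

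Of 800 pairs of named gene and alternative 3 changed sign, Ndufs4 (-0.0017 without 3x500g replicate 2 and -0.0054 without 1x2000g replicate 1) and Tpr (0.00063 without 1x2000g replicate 3), and neither gene was called. With 1 library left out Ndufs4 ran from -0.0054 to 0.0604 and Tpr from -0.0674 to 0.00063. Of 71 called named genes 58 were called under every alternative, and those that were not included Malat1, Xist, Umod, Slc12a1, Egf, Nhs, Pde4d, Lgals4, Snx29 and Lamp2. No paired analysis was possible because replicate numbers only name the libraries. Having 3 libraries per group, the unshared steps of the 2 protocols, and empty droplets not analysed here limit every comparison.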

Other observations

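Annotated gene types differed in direction in whole-library sums, where 19.5% of all genes were higher in 1x2000g and 15.4% lower. Of 1156 antisense genes tested, 445 were higher (38.5%) and 28 lower (2.42%), with a median log2 fold change of 0.55. Of 907 lincRNAs 198 were higher (21.8%), near the share of all genes, and 43 lower (4.74%), with a median of 0.28. Of 40 processed pseudogenes 21 were higher (52.5%) and 1 lower (2.5%), with a median of 0.72. The 14599 protein-coding genes divided more evenly, with 2596 higher (17.8%) and 2528 lower (17.3%) and a median of -0.01. Gene span was not taken into account here. Of all tested genes under 5 kb, 41.6% were higher and 3.70% lower, and the part of span in the values by gene type was not tested.

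Kcnq1ot1, an imprinted antisense RNA that stays in the nucleus, was one of the 38 genes called in both directions. It was higher in 4 classes and lower in 8, and in whole-library sums it went from 517 ± 23.6 to 380.1 ± 26.7 CPM, without overlap (log2 fold change -0.46, adjusted p = 0.00677, edgeR). It was singled out after its values were seen.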
